A study of Mus musculus with 2 samples.

Results

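DNA replication and S phase genes were examined in mouse LSK cells, the lineage-negative, Sca-1-positive, c-Kit-positive fraction that holds blood stem cells and multipotent progenitors. The set has 33 named genes, chosen by symbol for their place in the replication machinery and grouped by role. All 33 had a probe among the 20655 gene symbols named on both arrays, and all 33 were well above background on both, so no member was lost to the filter on dim signals. One array came from adult bone marrow LSK cells of mice at 8 weeks of age and one from fetal liver LSK cells at stage E14.5. Both populations were wild type, untransplanted and sorted fresh by flow cytometry, and 20 ng of total RNA was labelled for each. Bone marrow cells were of strain C57BL/6 per the labels, and no strain was used here for fetal liver. The sources used here do not give how many animals contributed to each sample. With 1 array per group no test across samples is possible, and tissue, age and slide cannot be told apart.

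Replication starts when the origin recognition complex, Cdc6 and Cdt1 load the Mcm2-7 ring onto DNA in G1. In S phase, Cdc45 and the GINS complex join that ring to make the active helicase, and polymerases, the sliding clamp and its loader then copy the strands. Many genes of this machinery are transcribed at the G1 to S transition by E2F factors, and their RNA is known as a mark of cycling cells. Fetal liver stem cells are known to cycle actively at midgestation, while most long-term stem cells of adult marrow are quiescent. The LSK fraction also holds multipotent progenitors, many of which divide in adult marrow.

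On these 2 arrays the replication genes differed little in RNA signal between the populations, with no member past 2-fold. A difference below is fetal liver minus bone marrow on the log2 scale of the processed signal, each array first divided by its own 75th percentile. Each ± value is the image software's technical error of that difference. Across the members it hardly varied, from 0.20 to 0.23 with a median of 0.20. Counts by this error are therefore close to cut-offs at fixed differences. Among probes with repeated spots, the SD measured between single spots was smaller, with a median of 0.06 in the brightest tertile. The median difference of the 33 members was 0.24, with a range from -0.58 (Orc1) to 0.88 (Orc6). None of the 33 reached 2-fold in fetal liver, where 6.75% of 13383 genes measured did, and none reached 2-fold in bone marrow, where 8.15% did. At 1.5-fold, 3 members were higher in fetal liver (Orc6, Mcm10 and Gins2) against 17.6% of all genes, and 0 were higher in bone marrow against 14.9%. Positive differences were seen in 25 members (57.8% of all genes had one), and 20 lay above the median of all genes, which was 0.11. The SD across members was 0.32.

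The members' signals bear on how these shares read. Of the 33 members, 27 lay in the brightest tertile of the 12251 genes above background on both arrays, 3 in the middle tertile and 3 in the dimmest. Among all genes of that brightest tertile 7.49% differed at least 2-fold in either direction and the SD was 0.60, against 18.5% and 0.91 in the dimmest tertile. The brightest tertile also leaned to fetal liver, with a median difference of 0.17. Of its 4083 genes, 2704 were positive and 2293 lay above the median of all genes. On the 2 arrays, 12 members (36.4%) differed by no more than their technical error, and so did 31.2% of all genes above background on both. Beyond 2 technical errors, 7 members were higher in fetal liver and 1, Orc1, was higher in bone marrow. These counts moved to 3 and 4 under spike-in scaling, to 4 and 2 with loess and to 2 and 9 with no scaling. With normexp background correction they were 5 and 1, where the 1 was Rfc2 and not Orc1. Normexp here adds an offset of 50 to each signal, which compresses the differences of dim genes most. Under 75th percentile scaling, 25.1% of all genes above background on both arrays lay beyond 2 technical errors in the fetal direction. For the adult direction the share was 17.6%. Shares under the other settings are not given here.

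The scaling set the sign of 13 of the 33 differences. The 8 spike-in controls above background on both arrays differed by -0.08 before scaling (SD 0.17), while the 75th percentiles differed by -0.42. Scaling by the spike-in controls therefore lowered every member's difference by 0.33, which put the median of the members at -0.09 and that of all genes at -0.23. Under it 12 members were positive, against 32.5% of all genes, and 0 reached 2-fold in either direction, against 3.83% of all genes in fetal liver and 13% in bone marrow. At 1.5-fold, 0 members were higher in fetal liver, against 7.88% of all genes, and 2, Orc1 and Rfc2, were higher in bone marrow, against 26.7%. Spike-in scaling moves the difference of every probe by the same amount. The members' place relative to the median of all genes, with 20 of 33 above it under both scalings, could therefore hardly change.

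**Figure D1:**
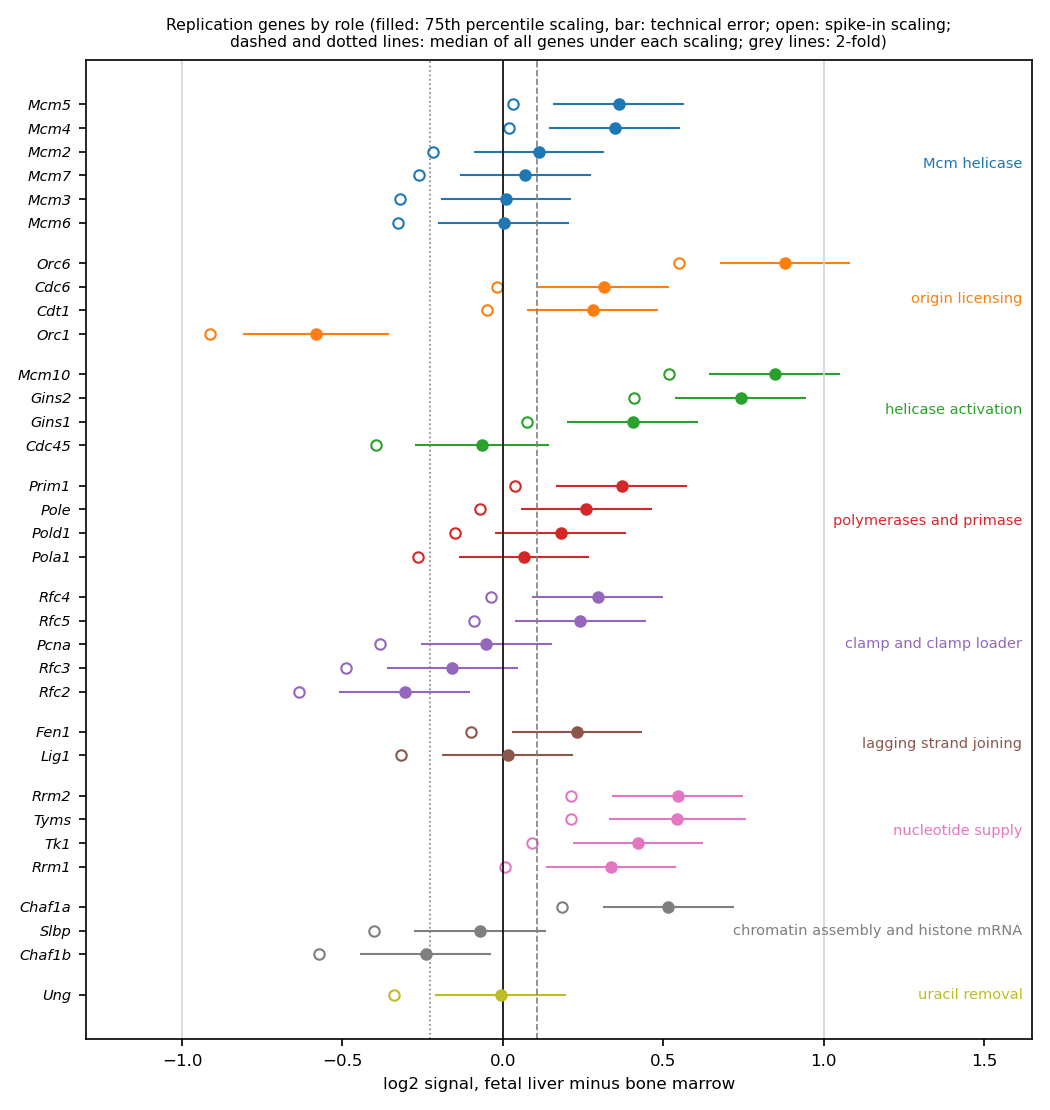
Difference in log2 signal, fetal liver minus bone marrow (horizontal axis), for each of the 33 replication genes, grouped by role. Filled points are scaled to the 75th percentile with bars for the technical error, open points are scaled to the spike-in controls, and dashed and dotted lines mark the medians of all genes at 0.11 and -0.23. All points lie inside the grey 2-fold lines, and the members of nucleotide supply lie to the right of the dashed line while Orc1 lies farthest left.

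**Figure D2:**
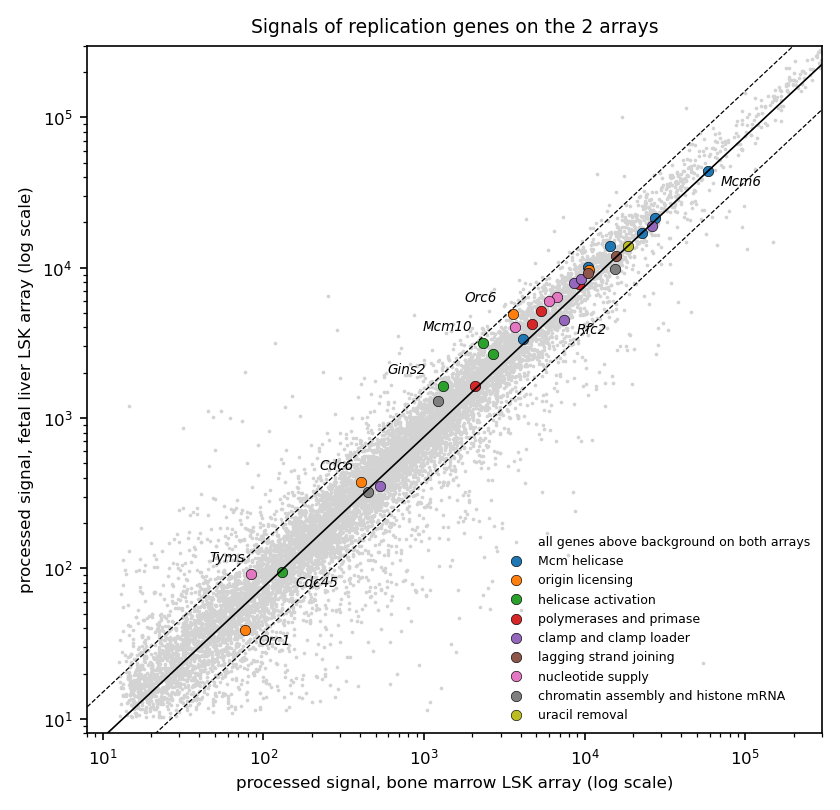
Processed signal on the bone marrow array against the fetal liver array, both on log axes, for all genes above background on both arrays (grey) and the replication genes (coloured by role). The solid line marks equal signal after 75th percentile scaling and the dashed lines 2-fold. The 33 members follow the solid line from Orc1, at 77.3 and 38.7, to Mcm6, at 58489.5 and 43933.

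The promoters of these genes were searched for short sequence features. Promoter letters were not used to choose members, but many such genes are known E2F targets, so a high E2F-like share was foreseeable. RefSeq promoter windows (GRCm38.p6, 250 bases before and 50 after the start) were matched for 28 of the 33 members, all but Mcm4, Gins1, Gins2, Pole and Rfc2. The windows were searched on both strands for TTTNNCGC, a loose form of the E2F motif. It was present in 12 of 28 members (42.9%), against 5.93% of 27025 genes. The members that held it were Mcm3, Mcm5, Mcm6, Mcm7, Cdc6, Cdt1, Orc1, Pola1, Pold1, Rfc3, Lig1 and Tyms. The CCAAT box was present in 17 of 28 members (60.7%) against 41.1% of genes. TTTGAA, the core of the CHR element known from late cell cycle genes, was present in 3 of 28 (10.7%) against 20.2%. Of 18 E2F-like matches in member promoters, 1 shared bases with CCAAT and 4 shared bases with another E2F-like match on the opposite strand. A match is a description of the letters in these windows and not a test of binding.

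The 170 bases before the start are printed 5′ to 3′ on the gene's strand for 6 members with an E2F-like match in that stretch, with the match in capitals, to show its place in genes of different roles. Rfc3, whose match begins 10 bases before the start, is not shown. The 6 are Mcm5 (chr8:75109339-75109508, plus strand), Mcm6 (chr1:128359706-128359875, minus strand), Mcm7 (chr5:138171884-138172053, minus strand, the first of its listed starts), Cdc6 (chr11:98907981-98908150, plus strand), Pola1 (chrX:93632156-93632325, minus strand) and Orc1 (chr4:108579284-108579453, plus strand).
Mcm5: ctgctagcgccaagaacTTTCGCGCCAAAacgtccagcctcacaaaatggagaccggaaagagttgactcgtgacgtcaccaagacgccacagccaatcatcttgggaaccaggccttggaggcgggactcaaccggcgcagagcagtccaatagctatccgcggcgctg
Mcm6: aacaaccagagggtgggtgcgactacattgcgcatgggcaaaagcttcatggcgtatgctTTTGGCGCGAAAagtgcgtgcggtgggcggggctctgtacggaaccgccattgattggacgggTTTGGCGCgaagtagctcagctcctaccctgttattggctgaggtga
Mcm7: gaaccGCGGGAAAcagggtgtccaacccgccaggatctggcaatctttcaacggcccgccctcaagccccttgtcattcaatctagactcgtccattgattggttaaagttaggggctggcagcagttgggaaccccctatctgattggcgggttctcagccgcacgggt
Cdc6: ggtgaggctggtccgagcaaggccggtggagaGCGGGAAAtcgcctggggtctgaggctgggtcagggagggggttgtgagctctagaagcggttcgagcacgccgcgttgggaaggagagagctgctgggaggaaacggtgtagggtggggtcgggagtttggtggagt
Pola1: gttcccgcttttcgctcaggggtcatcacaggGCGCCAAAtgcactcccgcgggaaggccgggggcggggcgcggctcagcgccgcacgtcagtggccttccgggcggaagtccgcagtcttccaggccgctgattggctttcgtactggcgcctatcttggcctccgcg
Orc1: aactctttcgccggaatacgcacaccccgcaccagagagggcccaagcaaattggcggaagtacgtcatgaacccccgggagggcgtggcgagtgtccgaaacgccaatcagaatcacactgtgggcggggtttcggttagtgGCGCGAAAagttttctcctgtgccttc
In Mcm5 the matches began 153 and 149 bases before the start and formed 1 run read on both strands, and Mcm6 had such a run at 110 and 106 bases and another match at 47. The matches of Mcm7, Cdc6, Pola1 and Orc1 began 165, 138, 138 and 27 bases before the start. The differences of these 6 genes ran from -0.58 for Orc1 to 0.36 for Mcm5.

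The same stretch is shown for Orc6 (chr8:85299462-85299631, plus strand) and Mcm10 (chr2:5012792-5012961, minus strand), the members with the highest differences, whose windows held no TTTNNCGC. Capitals here mark the CCAAT box on either strand.
Orc6: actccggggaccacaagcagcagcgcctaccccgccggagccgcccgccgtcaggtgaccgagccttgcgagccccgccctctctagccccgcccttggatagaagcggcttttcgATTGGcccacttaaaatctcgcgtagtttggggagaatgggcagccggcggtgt
Mcm10: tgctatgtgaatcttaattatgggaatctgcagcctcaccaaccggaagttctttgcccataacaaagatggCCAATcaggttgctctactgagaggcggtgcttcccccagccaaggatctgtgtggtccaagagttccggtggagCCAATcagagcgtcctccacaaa
The CCAAT letters began 54 bases before the start in Orc6 and 98 and 23 bases before it in Mcm10. Members with the E2F-like letters had a median difference of 0.07 (-0.58 to 0.54, 10 of 12 positive) and those without it 0.27 (-0.24 to 0.88, 11 of 16 positive). The ranges overlapped over most of their length.

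**Figure D3:**
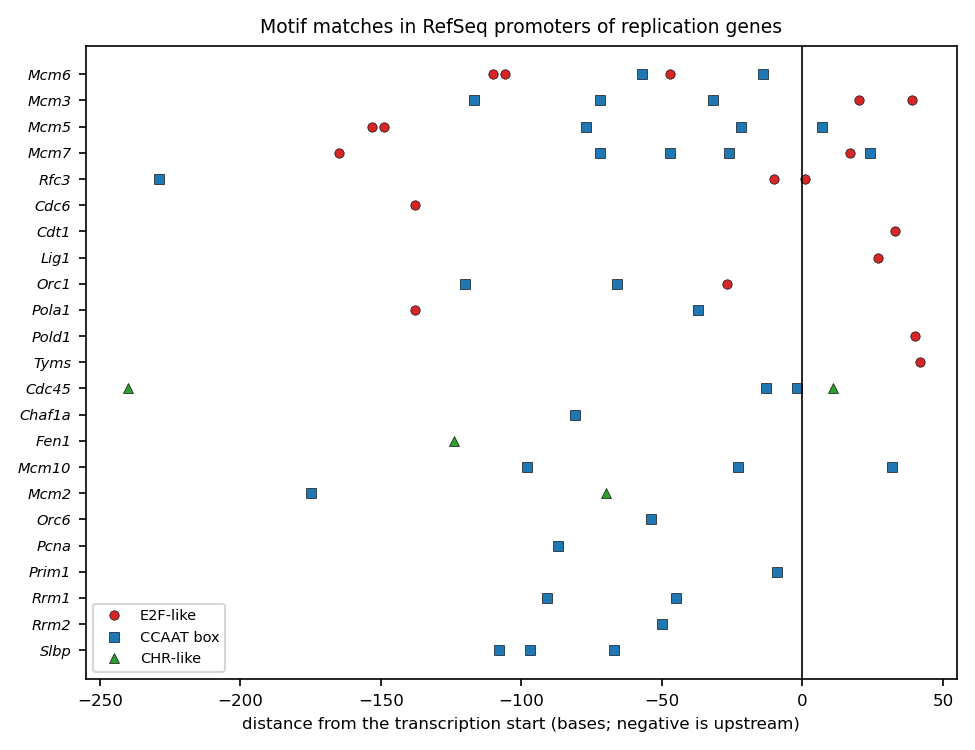
Distance of each motif match from the transcription start, in bases (horizontal axis, negative is upstream), for the member promoters with any match. Circles are E2F-like matches, squares CCAAT boxes and triangles CHR-like matches. E2F-like matches occur in 12 genes, on both sides of the start, and CHR-like matches in 3.

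The Mcm2 to Mcm7 genes encode the ring that becomes the replicative helicase, and their differences lay close together, from 0.00 to 0.36. Mcm6 signals were 58489.5 (bone marrow) and 43933 (fetal liver), a scaled difference of 0.00 ± 0.20. Mcm3 had signals of 22594 and 17046 in the same order (0.01), and Mcm7 of 27371 and 21524 (0.07). These 3 subunits differed by less than the technical error, as did Mcm2, with signals of 4108 and 3329 (0.11). Mcm4 had signals of 10504 and 10028 (0.35 ± 0.20) and Mcm5 of 14448 and 13914 (0.36 ± 0.20). All 6 were positive under 75th percentile scaling, but under spike-in scaling only Mcm4 (0.02) and Mcm5 (0.03) were. Mcm3 and Mcm7 lay below the median of all genes under each of the 13 settings, and Mcm4 and Mcm5 above it.

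Origin licensing genes were the most spread out of the roles, with an SD of 0.60 over 4 members. For Orc6, a subunit of the origin recognition complex, the bone marrow signal was 3585 and the fetal liver signal 4944. It was 1.84-fold higher in fetal liver (0.88 ± 0.20), the highest difference of the 33 members, and remained positive under spike-in scaling at 0.55. Orc1, the ATPase subunit that first engages origins, was dim, with signals of 77.3 and 38.7. It was 1.497-fold higher in bone marrow (-0.58 ± 0.23), just inside the 1.5-fold line, and at -0.91 under spike-in scaling. With normexp background correction Orc1 was at -0.20 (75th percentile) and -0.31 (quantile normalization), and Rfc2 was then the lowest member at -0.43 and -0.42. The offset of 50 added in those settings compresses the difference of a dim gene such as Orc1 more than that of the brighter Rfc2. Orc6 was at 0.69 and 0.72 in those settings, below Mcm10 at 0.75 and 0.76. Cdt1, which brings the Mcm ring to the origin, had signals of 10669.8 and 9713 (0.28 ± 0.20).

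Cdc6, the ATPase that loads the Mcm ring with Cdt1, was the member whose probes disagreed most. Its brighter probe had signals of 405 and 377, bone marrow first, and differed by 0.31. Its dimmer probe had signals of 123 and 223 and differed by 1.27 ± 0.21, past 2-fold. Both probes were higher in fetal liver after scaling, but their differences were 0.96 apart, and the brighter one was near 0 under spike-in scaling (-0.02). The other members with more than 1 probe above background, Rfc4, Chaf1b and Slbp, had probes at most 0.15 apart.

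Genes that turn the loaded ring into an active helicase had the highest median of the roles, 0.57 over 4 members. Mcm10, which binds the ring and is needed for origin firing, had signals of 2335 and 3150.4 and was 1.80-fold higher in fetal liver (0.85 ± 0.20). Gins2 had signals of 1309.6 and 1641 and was 1.67-fold higher (0.74 ± 0.20). Both remained positive under spike-in scaling, at 0.52 and 0.41. Gins1, also of the GINS complex, had signals of 2679 and 2659 (0.41 ± 0.20). Cdc45, the third component of the active helicase, had dim signals of 131 and 94.2 and differed by -0.06 ± 0.21. It did not share the higher fetal liver signal of Mcm10 and Gins2.

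Polymerase and primase genes differed little, from 0.07 to 0.37. Pola1, the catalytic subunit of the polymerase that starts each strand, had signals of 2082 and 1633 (0.07). Prim1, the primase that lays the RNA primer, had signals of 5335 and 5169 (0.37 ± 0.20). Pold1 and Pole encode the catalytic subunits of the lagging and leading strand polymerases. Pold1 had signals of 9201 and 7816 (0.18) and Pole of 4706 and 4224 (0.26). All 4 were positive under percentile scaling, and only Prim1 was under spike-in scaling (0.04). A second Pole probe was dim on both arrays.

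The clamp and clamp loader genes had a median of -0.05 and 3 of 5 were negative. Pcna, the sliding clamp, had signals of 26107 and 18875, in the same order, and differed by -0.05 ± 0.20. Rfc2 had signals of 7437 and 4510.2 and was 1.24-fold higher in bone marrow (-0.31 ± 0.20), the lowest difference of the set after Orc1. Rfc3, with signals of 529.7 and 356, differed by -0.16, less than its technical error. Rfc4, at 8625 and 7932 (0.30), and Rfc5, at 9536 and 8447 (0.24), went the other way under 75th percentile scaling. Under spike-in scaling all 5 clamp and clamp loader genes were negative. Rfc4 was then at -0.04, Rfc5 at -0.09, Pcna at -0.38, Rfc3 at -0.49 and Rfc2 at -0.64. Of the lagging strand enzymes, Fen1, the flap nuclease, had signals of 10547 and 9276 (0.23), and Lig1, the ligase that seals Okazaki fragments, of 15677 and 11872 (0.02).

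Nucleotide supply was the role in which all 4 members lay above the median of all genes, with a median of 0.48 and the narrowest spread of the roles with 3 or more members (SD 0.10). Rrm1 and Rrm2 encode the large and small subunits of ribonucleotide reductase. Rrm2 had signals of 3707 and 4053, bone marrow first (0.55 ± 0.20), and Rrm1 of 6705 and 6347 (0.34 ± 0.20). Tyms, thymidylate synthase, had dim signals of 83.8 and 91.6 (0.54 ± 0.21). Tk1, thymidine kinase, had signals of 6009.8 and 6031 (0.42 ± 0.20). All 4 remained positive under spike-in scaling, from 0.01 for Rrm1 to 0.21 for Rrm2 and Tyms.

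The subunits of chromatin assembly factor 1, which deposits histones behind the fork, went opposite ways. Chaf1a had signals of 1218 and 1305 (0.52 ± 0.20). Chaf1b had signals of 15369 and 9747 (-0.24 ± 0.20), and its other probe differed by -0.09. Slbp, which binds the stem-loop of histone mRNA, had signals of 449 and 320.4 (-0.07), and Ung, the glycosylase that removes uracil from DNA, of 18679 and 13928 (-0.01). Chaf1a was the 1 member among these 4 whose fetal liver signal was higher by more than the technical error.

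Replication proteins act in complexes, so each complex was completed with the subunits that are not members. These subunits are named for that reason, and the grouping was made after their values were seen. The Mcm2-7 ring and the Pol alpha-primase complex were even, spanning 0.36 and 0.30 from the lowest to the highest subunit. Pola2 differed by 0.33 and Prim2 by 0.19, close to Pola1 and Prim1. The origin recognition complex spanned 1.46, with Orc2 at 0.58, Orc3 at 0.62, Orc4 at -0.36 and Orc5 at 0.22 between Orc1 and Orc6. Orc2, Orc4 and Orc5 were dim. Orc4 had a second probe at -0.09 and Orc3 one at 0.14. GINS spanned 1.06, since Gins3 (-0.32) and Gins4 (-0.01) did not share the higher fetal liver signal of Gins1 and Gins2.

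In Pol epsilon the accessory subunit Pole2 was at 0.93 ± 0.20 against 0.26 for the catalytic Pole, with Pole3 at 0.04 and Pole4 at 0.09. In Pol delta, Pold3 was at 0.48 and the small subunit Pold4 at -0.39, around Pold1. Rfc1, the large subunit of the clamp loader, was at 0.19. In RPA, the single-strand binding complex, Rpa3 was at 0.86 against 0.17 for Rpa1 and 0.24 for Rpa2. By their brightest probes, Orc2 and Orc3 lay on the side of Orc6 and Orc4 on that of Orc1. The spans were 0.89 for Pol epsilon, 0.87 for Pol delta and 0.69 for RPA.

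**Figure D4:**
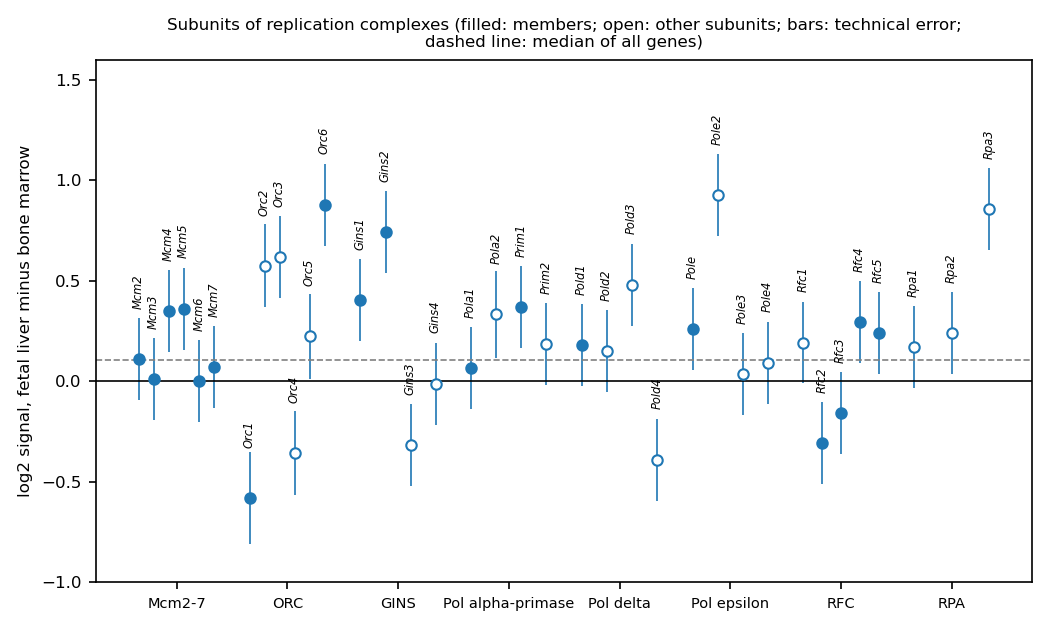
Difference in log2 signal, fetal liver minus bone marrow (vertical axis, 75th percentile scaling), for each subunit of 8 replication complexes. Filled points are members, open points are other subunits, bars are the technical error and the dashed line is the median of all genes, 0.11. The subunits of the Mcm2-7 ring lie within 0.36 of each other, while those of the origin recognition complex span 1.46.

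Beyond the members, a list of 44 other replication genes had a median difference of 0.40, with 39 positive, against 57.8% of all genes, and 4 past 2-fold in the fetal direction. That is 9.09% of the list against 6.75% of all genes. Those 4 were Atad5, which helps unload the clamp, at 1.18, Hells, a chromatin remodeller, at 1.15, Nasp, a histone chaperone, at 1.096, and Dna2, a nuclease and helicase of flap processing, at 1.02. The lowest were Pold4, Orc4 and Gins3. Under spike-in scaling the list's median was 0.07 and 0 genes reached 2-fold. Genes of S phase control went both ways, with 2 of 22 measured past 2-fold in each direction, where all genes had 6.75% in the fetal and 8.15% in the adult direction. Ccne1, cyclin E1, was at 1.73 by its brighter probe and 0.66 by the other, and E2f5, an E2F factor known mainly as a repressor, was at 1.16 from dim signals of 43.6 and 73.0. E2f3, an activator E2F, was at 0.91, with its other probe at 0.50, while the activators E2f1 and E2f2 were at -0.31 and 0.08. Rbl2 and Rb1, pocket proteins that restrain E2F factors, were at -1.71 ± 0.26 and -1.03 ± 0.21, with a low fetal liver signal of 21.4 for Rbl2. Rbl1, also a pocket protein, was at 0.13, with its other probe at -0.28. E2f1, E2f2 and Rbl1 are named because of their families, outside the rule for named genes. The lowest after Rbl2 and Rb1 was Cdc7, the kinase that fires origins, at -0.36, though its other probe was at 0.61.

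A mitosis list lay higher in fetal liver than the replication members. All 26 of its measured genes were positive (24 under spike-in scaling), with a median of 0.72 against 0.24 for the members, and 6 (23.1%) passed 2-fold in the fetal direction against 0 of 33 members and 6.75% of all genes. They were Plk1, Ccnb1, Kif20a, Bub1, Cenpe and Cenpa, and the lowest were Kif23 at 0.16, Kif11 at 0.19 and Birc5 at 0.40. The lowest mitotic gene therefore lay above 14 of the 33 members. Under spike-in scaling the mitosis median was 0.39 and that of the members -0.09. With 1 array per group the distance between these lists has no test. In bulk RNA, the number of cells in S phase and the RNA of each such cell cannot be told apart.

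**Figure D5:**
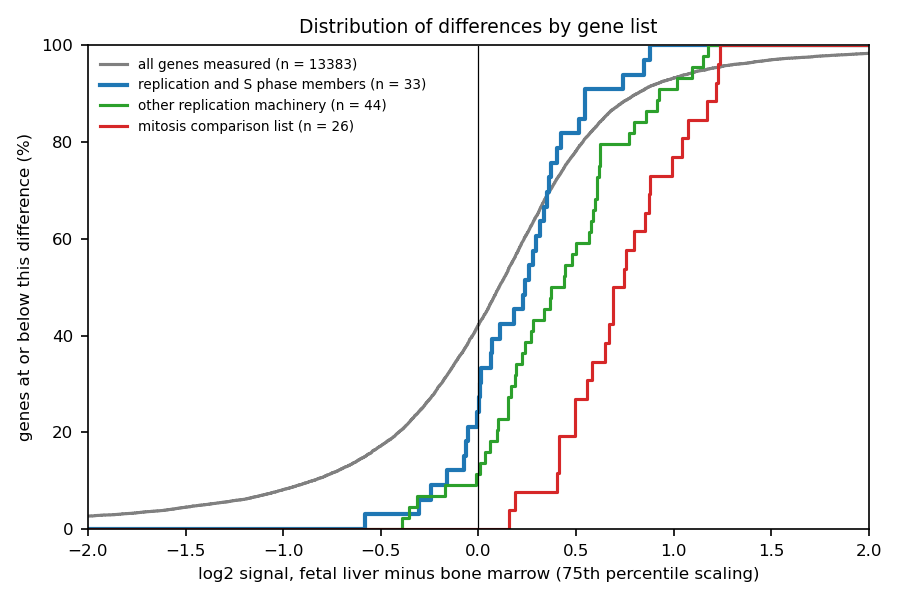
Cumulative share of genes (vertical axis, percent) at or below each log2 difference of fetal liver minus bone marrow (horizontal axis, 75th percentile scaling). The members (blue) rise steeply around a median of 0.24 inside the broad curve of all genes (grey). The other replication genes (green, median 0.40) and the mitosis list (red, median 0.72) lie to the right.

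The sorted populations were checked against marker genes. The sort markers Kit, with signals of 4074 and 3062.5, and Ly6a, which encodes Sca-1, with 3846 and 594 (-2.28), were above background on both arrays. The B cell markers Cd79a, Ms4a1 and Pax5, the T cell marker Cd8a, the macrophage marker C1qa and the hepatocyte markers Alb, Ttr and Apoa1 were not above background on either. Other markers of these types were present. Of 5 B cell markers 1 was above background on each array, Cd79b, with signals of 4030.2 and 3974. Of 5 T cell markers, 3 were above background in bone marrow and 4 in fetal liver, among them Cd4 at 1211 and 1067, Cd3e at 838 and 898, and Thy1 at 933 and 168 (-2.05). Of 5 macrophage markers with a probe, 4 were above background on each array, with Csf1r at 4928 and 4529. Of 6 hepatocyte markers, 3 were above background on each, with Afp at 1540.3 and 483 (-1.26) and Apoa2 at 871 and 769. The summed scaled signals, bone marrow first, were 22.6 and 29.8 for B cell, 16.7 and 16.1 for T cell, 55.3 and 63.1 for macrophage and 13.6 and 9.51 for hepatocyte markers.

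Of 8 erythroid markers, 6 were above background in bone marrow and 7 in fetal liver, and their summed scaled signal was 99.9 and 769.8. Hbb-bt alone made up 94.9 and 755 of these sums, and without it they were 5.07 and 15.2. The erythroid genes past 2-fold in the fetal direction were Hbb-bt at 2.99, Hbb-bs at 2.46, Hba-a1 at 1.501 and Epor at 1.44. Near-identical globin genes can share probe signal. Of 7 neutrophil markers with a probe, 7 were above background in bone marrow and 6 in fetal liver. Their median difference was -1.09, and 4 were past 2-fold in the adult direction, against 8.15% of all genes. They were Chil3 at -4.67, Ngp at -3.67, Camp at -1.09 and Retnlg, dim in fetal liver, by at least 13.5-fold. Ltf and S100a9 differed less, at -0.31 and -0.26, and S100a8 was at 0.15 (-0.18 under spike-in scaling). The neutrophil sums of 135 and 110.4 were mostly S100a9, at 77.3 and 64.4, and were 57.5 and 46.0 without it. The part of these cell types in the members' values was not tested.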

How the data were processed

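The deposited spot intensity values are, per the file headers, processed signals of Agilent Feature Extraction 10.7.1.1, background-subtracted and spatially detrended within each array and not scaled between arrays. The other deposited columns used, per the file headers, were the software's error of that signal, median spot and local background intensity, and flags of 0 or 1 per spot. The authors' deposited value table holds a linear ratio, which is the processed signal over an array-wide constant (178.6 and 133.9 for bone marrow and fetal liver, within 0.1% for 99.99% of 55232 single-spot probes), with column medians of 0.0589 and 0.0604. The sources used here do not say how those constants were chosen.

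Control spots and outlier spots (137 and 122) were left out, no spot was saturated, and 55664 probes on both arrays remained. Log2 signals were scaled to each array's 75th percentile, 178.9 and 134.0. The well-above-background flag held for 47.4% and 46.4% of probes, and negative controls had a median of 2.70 and 2.27. Probes were named through their accession in the RefSeq gene table (GRCm38.p6, used for names, since the array design uses mm9); 27226 matched. A gene took its brightest probe. A gene counted as measured when its probe was above background on either array; where it was so on only 1, the difference is a bound against the higher of the dim signal and the lowest signal above background (12.4 and 9.82).

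Each member probe was printed as 1 spot. On 224 non-control probes with repeated spots, a difference between single spots of the arrays had a median SD of 0.09 (log2), with 0.20 in the dimmest tertile and 0.06 in the brightest. These spreads are technical, and the number of arrays limits the precision. No p-value was computed. The functions were tested on simulated data. Members, gene lists and motifs were chosen with earlier results of these data known. All 33 members are named; of other lists, genes at least 2-fold different and the 3 highest and lowest are named, except that marker lists are given by counts, genes past 2-fold and examples chosen after their values were seen. The alternatives were run with Python 3.11.15 and limma 3.58.1 in R 4.3.3.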

Additional observations from a re-analysis of the deposited data

How the results depend on the processing

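Of 12 alternatives for the values, 11 left 0 of 33 members past 2-fold in either direction, while taking the dimmest probe of each gene put 1 member, Cdc6, past 2-fold in fetal liver. A threshold of 1.5-fold in place of 2-fold gave 3 members in fetal liver. The median of the members, 0.24 as reported, was -0.09 with spike-in scaling, 0.0797 with loess between the arrays, 0.0866 with normexp and quantile normalization, 0.12 with normexp and the 75th percentile and -0.17 with no scaling. The median of all genes moved with it, to -0.23, 0.00, 0.04, 0.09 and -0.31, and the members' median was above it in each. Members with a positive difference numbered 12 with spike-in scaling (32.5% of all genes) and 7 with no scaling, against 25 as reported (57.8%). The share of all genes with no scaling is not given here. Under all 13 settings 7 members were positive (Chaf1a, Gins2, Mcm10, Orc6, Rrm2, Tk1 and Tyms) and 8 negative (Cdc45, Chaf1b, Orc1, Pcna, Rfc2, Rfc3, Slbp and Ung). Relative to the median of all genes, 17 lay above and 12 below it in all 13. Some settings only rescale each array: spike-in scaling, the median of probes above background on both arrays, the authors' value table and no scaling. They shift all differences together, so they could hardly change these counts or the order of the medians. Since all 33 members were above background on both arrays, the settings that changed the filter could not change a member's difference. Keeping outlier spots could act on members only through the 75th percentile, as each member probe had 1 spot. The mean and dimmest-probe settings could change only the 4 members with several probes above background. The normexp settings, on median spot signals, and the setting with no scaling were chosen after seeing the data. Normexp on mean spot signals and naming by the scanner's gene names were not run, because the files used here give median spot signals and accessions. No paired analysis was possible because each group has 1 array, and leaving out an array leaves no comparison. Orc1, Tyms and Cdc45 lay in the dimmest tertile of genes, where signal over background limits the precision most.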

Other observations

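Genes of nucleotide supply outside the members had a median difference of 0.29 over 29 measured genes, with 22 positive, against 57.8% of all genes. Of the 29, 0 were at least 2-fold different, against 6.75% of all genes in the fetal and 8.15% in the adult direction. The highest were Dctpp1, which removes modified and surplus dCTP, at 0.99, from signals of 44898 and 66683, bone marrow first, Ctps, a CTP synthase, at 0.64, and Dhodh, an enzyme of pyrimidine synthesis, at 0.63. The lowest were Dguok and Tk2, the mitochondrial deoxynucleoside kinases, at -0.92 and -0.48, and Impdh1, of guanine nucleotide synthesis, at -0.47. Rrm2b, the small reductase subunit known from non-dividing cells, was not above background on either array. Under spike-in scaling the list's median was -0.04 and 11 genes were positive, against 32.5% of all genes. Then 1 gene, Dguok, passed 2-fold in the adult direction, against 13% of all genes. The cytosolic kinase Tk1 and the reductase subunit Rrm2 among the members were positive, at 0.09 and 0.21 under spike-in scaling. Dguok and Tk2 were negative under percentile scaling and under spike-in scaling (-1.25 for Dguok and -0.81 for Tk2). Dck, another deoxynucleoside kinase of the list, was at 0.00 and, under spike-in scaling, at -0.33. It is named outside the rule for named genes.

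Among 11 genes that restrain replication, the 4 that encode cyclin-dependent kinase inhibitors ranged from -5.31, a bound, to 1.80, and the other 7 from -0.12 to 0.84 (SD 0.38, against 0.32 across the members). Of the 11, 3 passed 2-fold in the adult direction and 1 in the fetal direction, against 8.15% and 6.75% of all genes. Cdkn2c, dim in fetal liver, was higher by at least 39.6-fold in bone marrow, Cdkn1a was at -3.66 ± 0.20 and Cdkn1b at -1.07 ± 0.20, while Cdkn1c was at 1.80 ± 0.20. Geminin (Gmnn), which binds Cdt1, was at 0.40, and Samhd1, which breaks down dNTPs, was at 0.48. Cul4b and Ddb1, of the ubiquitin ligase that targets Cdt1, were at 0.84 and 0.79. Cul4a and Dtl, which also serve that ligase, were at -0.12 and -0.09. Gmnn, Samhd1, Cul4a and Dtl are named because of their roles, outside the rule for named genes.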
